A study of Mus musculus with 8 samples.

Results

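The genes described here encode the parts of the secretory pathway that build and serve the Golgi apparatus. They were chosen by gene symbol and comprise GOLPH3 and GOLPH3L, the golgins and Golgi stacking proteins, the COG and TRAPP tethering complexes, SNAREs with GOLT1, the COPI and COPII coats, the Arf GTPases with their regulators, and the p24 cargo receptors. Of the 8537 genes measured in both total and ribosome-bound mRNA, 61 belonged to this group. The rule matched 70 symbols in the table of total mRNA and 63 in the table of ribosome-bound mRNA, so that 9 and 2 symbols, respectively, were in 1 table only. The question was whether the pattern of Golph3 across young and old oocytes was shared by the other genes.

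All oocytes came from C57BL/6 females of the genotype RiboTagF/F;Zp3-Cre, in which Zp3-Cre, active in growing oocytes, puts an HA tag on the ribosomal protein RPL22 in the oocyte. Young females were 1 month and old females 12 to 15 months of age. The old females were retired breeders, so that age and breeding history cannot be told apart. Ovulation was induced at both ages with 5 IU PMSG, followed after 48 h by 10 IU hCG. Ovulated oocytes, arrested at the second meiotic metaphase (MII), were collected 13 h after hCG and combined into 4 pools of 200 oocytes, 2 pools per age. A share of 10% of each lysate served as input, which measures total mRNA, and an antibody against HA recovered ribosome-bound mRNA from the remainder, giving 8 libraries. Since each pool holds oocytes of several females, differences between animals are not visible.

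Cargo leaves the endoplasmic reticulum in COPII-coated vesicles and returns in COPI-coated ones, whose coat is recruited by the GTPase ARF1. Tethers such as the golgins, COG and TRAPP catch arriving vesicles, and SNAREs fuse them with the target membrane. GOLPH3 binds the lipid PI4P on the trans side of the Golgi, holds glycosyltransferases in place and, through the myosin MYO18A, links the membrane to actin. The oocyte disperses its Golgi during meiotic maturation, and because transcription is silent by then, the proteins it makes depend on how stored mRNAs are translated. That translation is governed to a large part by CPEB1, which binds the cytoplasmic polyadenylation element (CPE) in the 3'-UTR.

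The study used Golph3 among its examples of mRNAs with reduced translation in old oocytes and asked whether CPEB1 sites go with that reduction. For each gene, the annotated 3'-UTR of greatest length was therefore searched on the sense strand for TTTTAT and TTTTAAT, the DNA letters of the CPE. Golph3 (ENSMUSG00000022200.7, plus strand of chromosome 15, 12321450 to 12351591 in GRCm38) held 8 such motifs in 2256 bases of 3'-UTR. The windows below show the motif in capitals with 10 bases on either side, from GENCODE transcripts on GRCm38. They hold 4 of the 8 for Golph3 and the last of the 2 for Copb1. They are shown for the GOLPH3 pair, for Sec22a and Trappc13, which were low in old HA libraries, and for Copb1, which had the highest HA level per kilobase of exon.
Golph3, chr15:12350216-12350241, plus strand: tattaggacgTTTTATacacaaacct
Golph3, chr15:12350677-12350702, plus strand: ttttcctgttTTTTATgatttgtgta
Golph3, chr15:12351075-12351100, plus strand: aatgtcaaatTTTTATtattatagtt
Golph3, chr15:12351212-12351237, plus strand: tatactatctTTTTATctggagtaat
Golph3l, chr3:95618452-95618477, plus strand: tagtccctgtTTTTATttcctacata
Golph3l, chr3:95619114-95619139, plus strand: caatgtttatTTTTATatgtccatac
Sec22a, chr16:35311208-35311233, minus strand: tgtgtaaggaTTTTATtttgttccta
Trappc13, chr13:104143966-104143991, minus strand: aaaacactacTTTTATctttcaaatt
Copb1, chr7:114215571-114215596, minus strand: atttttgttaTTTTATaaataaatta
The last of the Golph3 motifs began 370 bases before the annotated end of the 3'-UTR, that of Sec22a 93 bases and that of Copb1 28 bases before it.

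Values are CPM, reads on a gene relative to the size of its library, scaled by the authors with TMM factors set separately over the 4 input and the 4 HA libraries. Translation efficiency (TE) is HA CPM over input CPM of the same pool, and because of the separate scaling its height has no absolute meaning. The HA libraries held 37817382 to 59688578 reads on measured genes and the input libraries 38276453 to 60052814. In CPM, 3 reads were worth 0.0388 to 0.111 in HA and 0.0435 to 0.0788 in input libraries, a limit that covers counting error only. The old HA libraries had more genes without reads (2.89% and 4.11%) than the young ones (0.112% and 0.865%). All 10 oocyte markers were in both tables, with summed levels of 10712 and 10445 CPM in old and 11746 and 11852 CPM in young input libraries, and 14183 and 20426 against 13471 and 13228 CPM in HA libraries. Of 14 cumulus and granulosa cell markers, 9 were in the input table (157 and 314 CPM summed in old, 198 and 275 CPM in young) and 4 in the HA table (144 and 88.8 CPM in old, 199 and 207 CPM in young). Apart from the cumulus markers in input, these sums did not overlap between the ages. Amh, Amhr2, Foxl2 and Cyp11a1, which mark granulosa cells, were not among the genes analysed here. The same held for all 10 blood and stroma markers. The part of these cells in the results was not tested.

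Differences between ages were estimated with limma on log2(CPM + 1), which understates the change of low genes. A log2 difference is old minus young, its standard error (SE) and adjusted p come from this fit, and the adjustment (Benjamini-Hochberg) runs over all genes of the table. Permuting 2 pools against 2 exactly allows no two-sided p under 0.333 for any gene taken alone. CPM are shares of a library, so that less of an mRNA and more of all others cannot be told apart.

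Golph3 stood higher in old than in young oocytes in total mRNA and lower in ribosome-bound mRNA. In input libraries its level was 424 and 373 CPM in the old pools and 274 and 203 CPM in the young pools. In HA libraries the same pools gave 92.8 and 38.8 CPM in old and 184 and 131 CPM in young oocytes. The ages did not overlap in either fraction. The TE of Golph3 was 0.219 and 0.104 in the old pools against 0.674 and 0.646 in the young pools, or 0.161 ± 0.0812 against 0.660 ± 0.0200 (SD, n = 2 each). On the log2 scale the TE difference was -2.11 (SE 0.67), made up of 0.75 (SE 0.28) in input and -1.36 (SE 0.69) in HA. None of these passed the adjustment in limma, with an adjusted p of 0.739 for TE, 0.778 for input and 0.44 for HA. The study had picked Golph3 for a decrease seen in one or both of its datasets, so these values describe the gene and are not independent evidence of the direction. Among the 8537 genes, the TE of Golph3 ranked at the 45.5 and 45.2 percentile in the young pools and at the 27.3 and 28.3 percentile in the old pools. The span of 1810049J17Rik covers 13.8% of the exon bases of Golph3, and reads there cannot be assigned without strand.

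Golph3l, the paralog (ENSMUSG00000046519.15, chromosome 3, 95588934 to 95619247), gave the opposite picture in ribosome-bound mRNA. Its HA level was 198 and 130 CPM in old and 68.1 and 44.5 CPM in young pools, without overlap. The input levels were 56.0 and 86.0 CPM in old and 68.4 and 61.4 CPM in young pools, which do overlap. The log2 difference was 1.53 (SE 0.63, adjusted p = 0.338 in limma) in HA and 0.10 (SE 0.43, adjusted p = 0.984) in input. Its TE was 3.54 and 1.51 in old against 0.995 and 0.724 in young pools, a log2 difference of 1.43 (SE 0.87, adjusted p = 0.745 in limma). The HA values of the 2 paralogs thus lay in opposite order between the ages. Per kilobase of exon, the mean over the 4 pools was 97.8 CPM for Golph3 and 23.9 CPM for Golph3l in input, and 34.3 and 38.8 CPM in HA.

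**Figure D1:**
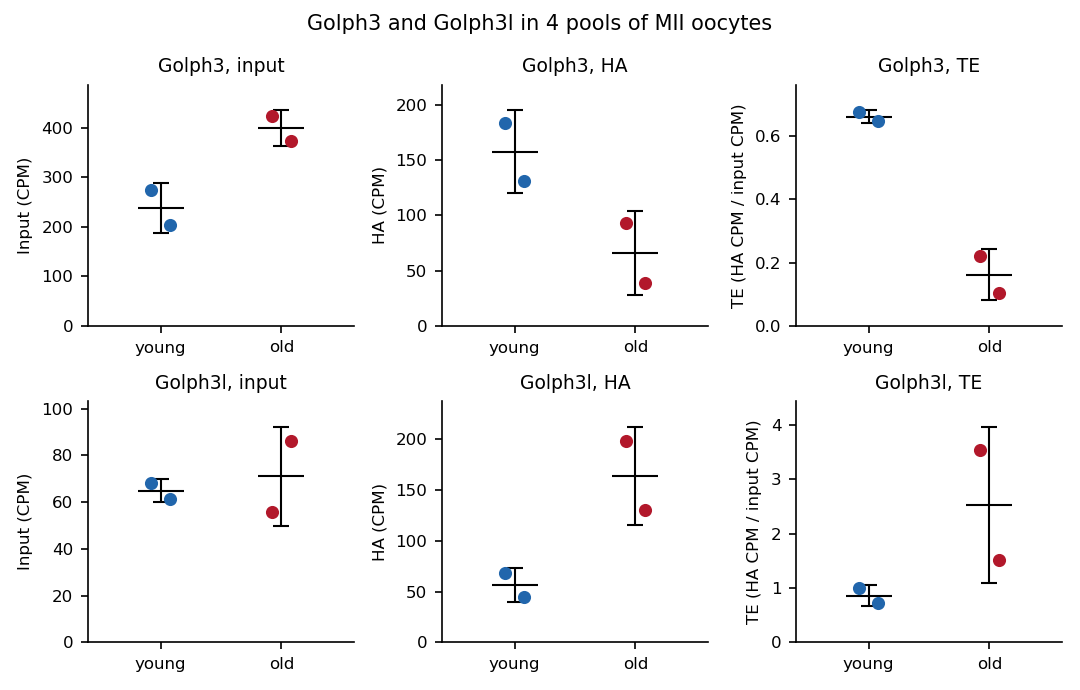
Input CPM, HA CPM and TE of Golph3 (upper row) and Golph3l (lower row) in young and old oocytes. Points are the 2 pools of each age, horizontal lines the mean and bars the SD. For Golph3 the old pools lie above the young in input (373 to 424 against 203 to 274 CPM) and below them in HA (38.8 to 92.8 against 131 to 184 CPM), whereas for Golph3l they lie above the young in HA (130 to 198 against 44.5 to 68.1 CPM).

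None of the other 60 genes showed the whole Golph3 pattern, that is input higher, HA lower and TE lower in both old pools than in both young pools. Among all genes in both tables the pattern was met by 266 of 8537, or 3.12%. By the sign of the mean log2 difference alone, 10 of 60 had a higher input and a lower HA level in old oocytes, against 24.7% of all genes. These were Arfgap3, Cog1, Copg1, Golga7, Golgb1, Gosr1, Tmed5, Trappc13, Trappc2 and Trappc8. The reverse of the Golph3 pattern, lower input and higher HA without overlap, was seen for Arfgef1 and Sec22c, 2 of 61 genes, against 1.83% of all genes. The count of 0 rested on the scaling and on single pools. Golgb1 met the whole pattern after rescaling the libraries to equal sums, and Copg1 met it with median ratio scaling and with quantile normalization. With 1 pool left out, 2 to 4 other genes met it, against 7.58% to 16.0% of all genes. These counts could not fall, since a gene that meets the pattern with all pools still meets it with fewer. Golph3 itself met it under each of the 3 scalings, and for the same reason leaving out a pool could not change that.

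Of the 61 genes, 1 was higher and 2 were lower in old input libraries at an unadjusted p under 0.05 in limma, where 2.71% and 3.48% of all genes were called, or 6.18% in either direction. In HA libraries 3 were higher and 5 lower (all genes, 4.28% and 10.5%, or 14.7% in either direction). In TE 4 were higher and 3 lower (all genes, 2.98% and 3.51%, or 6.49% in either direction). After adjustment none was called in any of the 3 comparisons, and the smallest adjusted p among the 61 was 0.778 in input, 0.297 in HA and 0.739 in TE. Over all genes 0.0095% passed the adjustment in input, 0% in HA and 0% in TE. The median log2 difference of the 61 genes was -0.14 in input, 0.18 in HA and 0.11 in TE, beside -0.03, -0.14 and -0.10 for all genes. The median in HA was -0.45 after rescaling the libraries to equal sums and -0.14 after quantile normalization. Those settings moved the HA median of all genes to -0.68 and -0.05. Without overlap between the ages, 7 genes stood higher and 11 lower in old input (all genes, 16.4% and 18.9%). In HA these numbers were 16 and 13 (all genes, 17.2% and 24.7%), and in TE 13 and 8 (all genes, 16.8% and 22.7%).

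**Figure D2:**
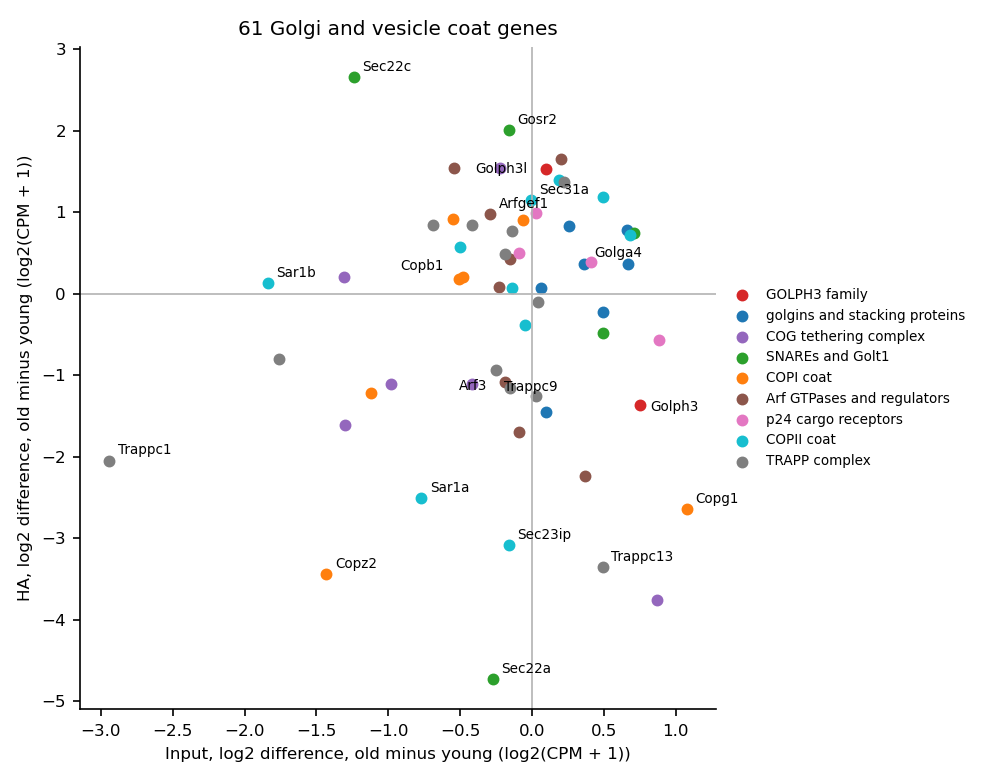
Log2 difference between old and young oocytes in HA (vertical) against that in input (horizontal) for each of the 61 genes, on log2(CPM + 1), coloured by role. Golph3 (0.75 in input, -1.36 in HA) lies at the lower right together with Copg1 and Trappc13, while Sec22c (-1.24 and 2.66) lies in the upper left and Golph3l (0.10 and 1.53) near the vertical axis.

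Likeness to Golph3 was measured as Pearson's r over 8 values per gene, log2(CPM + 1) of each library centred on the mean of its fraction. The points share libraries and pools, so r is a description. The most like were Copg1 (r = 0.89), Sec23ip (0.82), Trappc13 (0.74), Trappc9 (0.74) and Arf3 (0.73). An r of at least 0.8 was reached by 2 of 60 genes, or 3.33%, against 4.03% of all other genes. The median r was -0.035 for the 60 genes and 0.11 for all genes. At the other end was Arfgef1 with -0.95.

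Copg1, a γ subunit of the COPI coat (chromosome 6, 87887814 to 87913595), had 7.58 and 0.111 CPM in old HA and 15.3 and 21.8 CPM in young HA libraries. The second old value rests on 3 reads. Its input levels were 16.3 and 43.9 CPM in old and 16.6 and 8.88 CPM in young pools, overlapping because the first old pool fell just short of the first young one. The log2 difference was 1.08 (SE 0.83) in input and -2.64 (SE 1.64, adjusted p = 0.564 in limma) in HA. The span of another gene covers 22.6% of its exon bases, and a near-identical transcript is annotated for Gm26636, so its reads are uncertain. Sec23ip, which binds the COPII subunit SEC23, had 6.44 and 1.22 CPM in old and 27.9 and 40.6 CPM in young HA libraries, with 56.4 and 45.3 against 59.3 and 54.3 CPM in input, where the ages overlapped. Its TE difference was -2.93 (SE 1.31, adjusted p = 0.739 in limma). Trappc9 had 31.6 and 13.8 CPM in old and 48.6 and 34.9 CPM in young HA libraries. For Arf3, an Arf GTPase of the trans-Golgi, the second old pool stood apart, at 121 and 8.13 CPM in old and 104 and 46.9 CPM in young HA libraries.

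The genes with an unadjusted p under 0.05 that were lower in old HA libraries were Sec22a, Trappc13, Trappc1, Copz2 and Sar1a. All but Sec22a were under 1 CPM in both old HA libraries, so that they were in the HA table (1 CPM in at least 2 libraries) through the young pools alone and had to differ in this direction. Of all genes in the HA table, 11.6% were in it in this way. When 10 CPM was required in 2 libraries, 1 lower gene was left, Sec22a. It passed that filter through the young pools alone, so under it Sec22a also had to differ in this direction. Sec22a, an endoplasmic reticulum protein of the SEC22 family (ENSMUSG00000034473.13, minus strand of chromosome 16, 35311131 to 35363918), had 0.713 and 1.37 CPM in old against 42.9 and 63.6 CPM in young HA libraries. In input it had 34.0 and 28.4 CPM in old and 30.4 and 46.8 CPM in young pools. Its total mRNA thus overlapped between the ages while its HA values lay far apart. The TE was 0.0210 and 0.0481 in old and 1.41 and 1.36 in young pools, a log2 difference of -4.45 (SE 1.38, adjusted p = 0.739 in limma). In HA the difference was -4.73 (SE 1.44, adjusted p = 0.297 in limma). On reads recovered from the CPM, its HA adjusted p was 0.0462 in edgeR's likelihood ratio test and 0.000211 in DESeq2, but 0.294 in edgeR's quasi-likelihood test. Its TE adjusted p was 0.00182 in DESeq2, 0.0525 in the likelihood ratio test and 0.637 in the quasi-likelihood test of edgeR.

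Trappc13, a TRAPP subunit (ENSMUSG00000021711.16, minus strand of chromosome 13, 104142149 to 104178469), was counted in old HA libraries with 9 and 2 reads and in young ones with 678 and 742, or 0.214 and 0.0739 against 8.76 and 13.1 CPM. In input it was measured at 14.8 and 16.7 CPM in old and 7.91 and 14.9 CPM in young pools. The first old and second young input values nearly coincide, which is why Trappc13 missed the whole Golph3 pattern. The log2 difference was -3.36 (SE 1.00, adjusted p = 0.297 in limma) in HA and -3.85 (SE 1.53, adjusted p = 0.739) in TE. On the recovered reads its HA adjusted p was 0.0149 in DESeq2, 0.0611 in the likelihood ratio test and 0.295 in the quasi-likelihood test of edgeR, and its TE adjusted p was 0.0161, 0.0698 and 0.637 in the same order. Since the gene is listed through the young pools, none of these supports a direction.

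Trappc1, a core subunit of TRAPP, was low in old oocytes in both fractions. Its input levels were 9.79 and 0.381 CPM in old and 14.9 and 53.9 CPM in young pools. Its HA levels were 0.0475 and 0.148 CPM in old and 4.55 and 2.70 CPM in young pools, the old ones resting on 2 and 4 reads. The log2 difference was -2.94 (SE 1.25, adjusted p = 0.778 in limma) in input, -2.05 (SE 0.64, adjusted p = 0.297) in HA and 0.89 (SE 1.70) in TE. Since Trappc1 is listed in HA through the young pools alone, its order in HA was fixed and is not set against that of Golph3. Copz2, a ζ subunit of COPI, had 0.166 and 0.259 CPM in old and 3.81 and 34.7 CPM in young HA libraries, and 1.29, 0.522, 21.7 and 0.105 CPM in the same order in input. Its input values had no order by age.

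SAR1, the GTPase that starts COPII assembly, is encoded by Sar1a and Sar1b. In HA libraries Sar1a was counted 1 and 0 times in old and 218 and 439 times in young pools, or 2.82 and 7.74 CPM in young oocytes. In input it was also low, at 0.165 and 4.37 CPM in old and 10.5 and 0.578 CPM in young pools. Sar1b was the paralog with more mRNA, at 26.4 CPM per kilobase of exon in input against 1.04 CPM for Sar1a. It had 12.2 and 13.9 CPM in old and 33.3 and 72.9 CPM in young input libraries, with a log2 difference of -1.84 (SE 0.68, adjusted p = 0.778 in limma). In HA its values overlapped, at 53.1 and 41.9 CPM in old and 60.8 and 30.4 CPM in young pools.

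Beside Golph3l, the genes higher in old HA libraries at an unadjusted p under 0.05 were Gosr2 and Sec31a. Gosr2, a Golgi SNARE (chromosome 11, 103676849 to 103697898), had 117 and 88.5 CPM in old and 24 and 25.0 CPM in young HA libraries. Its input values of 61.9 and 109 CPM in old and 121 and 68.9 CPM in young pools were intermixed. The log2 difference was 2.01 (SE 0.76, adjusted p = 0.313 in limma) in HA and 2.16 (SE 0.93, adjusted p = 0.739) in TE. Sec31a, the main outer COPII subunit (chromosome 5, 100361649 to 100416234), had 1763 and 1539 CPM in old and 937 and 583 CPM in young HA libraries. Its input values, 727 and 390 CPM in old and 475 and 609 CPM in young pools, again overlapped. Its log2 difference was 1.15 (SE 0.39, adjusted p = 0.297 in limma) in HA and 1.17 (SE 0.50, adjusted p = 0.739) in TE.

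Sec22c, another SEC22 family gene (chromosome 9, 121680045 to 121705490), had the reverse order of Golph3. In input it had 8.47 and 2.95 CPM in old and 15.7 and 11.4 CPM in young pools. In HA it had 24.4 and 19.8 CPM in old and 3.63 and 1.87 CPM in young pools. Its TE of 2.89 and 6.73 in old and 0.231 and 0.163 in young pools gave the highest log2 TE difference of the 61 genes, 3.90 (SE 1.56, adjusted p = 0.739 in limma). Arfgef1, which encodes the Arf activator BIG1 (chromosome 1, 10137571 to 10232670), had the same order at a higher level. Its input values were 422 and 506 CPM in old and 512 and 627 CPM in young pools. Its HA values were 429 and 987 CPM in old and 326 and 335 CPM in young pools, and its TE difference was 1.27 (SE 0.51, adjusted p = 0.739 in limma). The 2 old pools of Arfgef1 differed more from each other in HA than the lower of them did from the young pools.

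**Figure D3:**
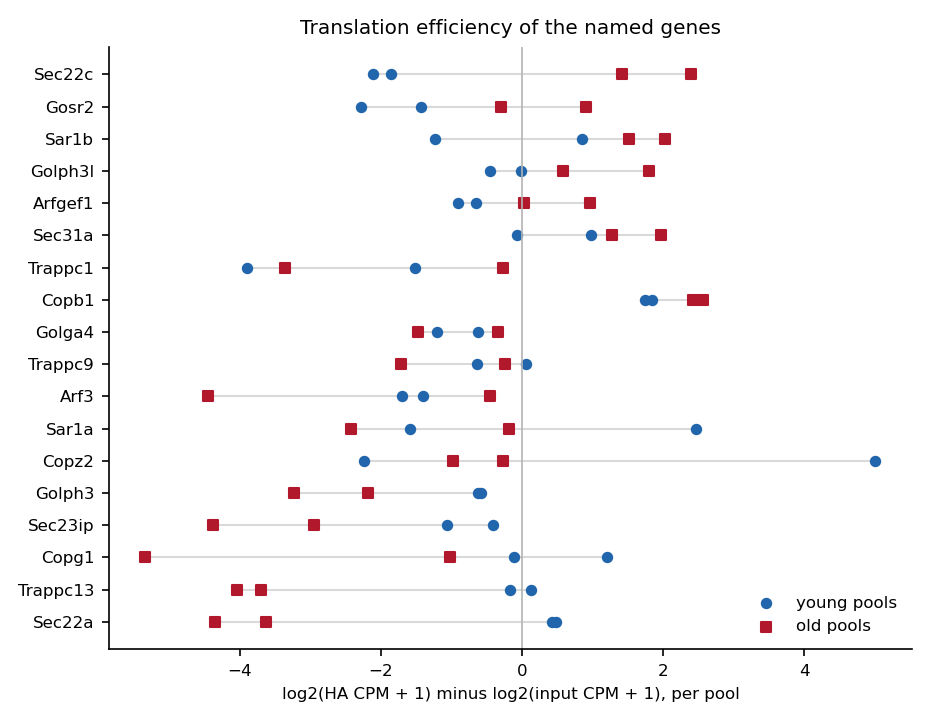
TE of the named genes on the log2 scale, log2(HA CPM + 1) minus log2(input CPM + 1), with 1 point per pool, ordered by the difference between the ages. Both old pools (squares) lie left of both young pools (circles) for Golph3, Sec22a, Trappc13, Copg1 and Sec23ip and right of them for Sec22c, Gosr2, Sar1b, Golph3l, Arfgef1, Sec31a and Copb1.

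By mean CPM, Sec31a, Copb1 and Arfgef1 led in HA and Golga4, Sec31a and Arfgef1 led in input. Per kilobase of exon, Copb1 (161 CPM), Sec31a (153 CPM) and Arf1 (134 CPM) were highest in HA, and Arf1 (159 CPM), Golph3 (97.8 CPM) and Sec31a (69.8 CPM) were highest in input. Copb1, the β subunit of COPI, had 1004 and 927 CPM in old and 746 and 929 CPM in young HA libraries, from 186 and 155 CPM in old and 221 and 257 CPM in young input libraries. Its TE, 5.38 and 5.98 in old and 3.38 and 3.61 in young pools, was at or above the 93.6 percentile of all genes in each pool. The log2 TE difference of Copb1 was 0.70 (SE 0.47, adjusted p = 0.76 in limma). Golga4, a golgin of the trans-Golgi, had 818 and 650 CPM in old and 444 and 726 CPM in young input libraries and a TE difference of 0.00 (SE 0.55). Its HA values were 295 and 514 CPM in old and 289 and 315 CPM in young pools.

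By role, the golgins and stacking proteins were the group nearest to Golph3 in total mRNA under the deposited scaling. All 7 had a higher mean in old input, with a median log2 difference of 0.36, and 4 of them (Golga2, Golga3, Golga5 and Golgb1) did not overlap between the ages, as did 16.4% of all genes in this direction. None had an unadjusted p under 0.05. After rescaling the libraries to equal sums 5 of 7 were above 0, and after quantile normalization 6 of 7 were. Quantile normalization turned the ranking, with an input median of 0.21 for this group and 0.29 for the p24 receptors. In HA they parted from Golph3, with 5 of 7 above 0 and a median of 0.36, which became -0.27 after rescaling the libraries to equal sums and -0.30 after quantile normalization. Golga3 had 192 and 189 CPM in old and 158 and 161 CPM in young input libraries, and 181 and 184 against 110 and 95 CPM in HA. Golga5 had 172 and 268 against 129 and 142 CPM in input and 232 and 369 against 145 and 200 CPM in HA. Both genes were therefore higher in old pools in both fractions. Golgb1, the golgin giantin, had 291 and 362 against 195 and 274 CPM in input but 69.6 and 167 against 150 and 106 CPM in HA. Golga7 was the golgin gene lowest in old HA, with 15.2 and 36.1 against 60.7 and 71.3 CPM.

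Among the coats, 6 of 7 COPI genes were below 0 in input (median -0.51) under the deposited scaling and under equal sum, median ratio and quantile scalings. Copb1 and Copb2 were lower in old input without overlap, Copb2 with 127 and 145 against 196 and 190 CPM. In HA the COPI median was 0.18, and it was -0.45 and -0.51 under equal sum and quantile scalings. Copa, the α subunit, had 369 and 396 CPM in old and 227 and 184 CPM in young HA libraries, with a log2 difference of 0.90 (SE 0.44, adjusted p = 0.411 in limma). Of the 10 COPII genes, 7 were above 0 in HA (median 0.35), 4 with equal sums and 5 with quantile normalization. Sec24b, a cargo adaptor of COPII, had 199 and 267 against 115 and 87.3 CPM in HA and 344 and 294 against 227 and 227 CPM in input, so that it was higher in old pools in both fractions. Sec23a was listed higher in old HA at 225 and 37.9 against 36.4 and 32.7 CPM, with the second old pool close to the young ones. The span of another gene covers 44.1% of its exon bases.

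Of the tethers, 5 of 6 COG genes were below 0 in input (median -0.70), also under the 3 other scalings. Spans of other genes cover 57.2% of the exon bases of Cog4, 52.3% of Cog5 and 50.2% of Cog8, so their reads are uncertain. For Cog3 and Cog6 this share is 0%. In HA 4 of 6 were below 0 (median -1.11), and 5 with equal sums. After quantile normalization the HA median was -0.32, and the TE median, -0.22 under the deposited scaling, was 0.56. Cog4 had 7.41 and 8.67 against 18.5 and 24.2 CPM in input and 2.47 and 7.21 against 12.9 and 18.1 CPM in HA. Cog3 went the other way in HA, with 72.6 and 195 against 51.0 and 31.6 CPM. The lowest TE difference of all 61 genes, -4.64 (SE 2.22, adjusted p = 0.739 in limma), was that of Cog1, at 13.4 and 0.296 CPM in old and 15.2 and 211 CPM in young HA libraries. It rests on the second old and the second young library, and the spans of other genes cover 42.5% of its exon bases. The 12 TRAPP genes had medians of -0.17 in input, -0.45 in HA and 0.78 in TE. The HA median was -0.26 to -1.03 under the other scalings. The 8 Arf genes and regulators had medians of -0.17 in input and 0.25 in HA, the latter -0.38 with equal sums and -0.30 with quantile normalization. For the 4 p24 genes the medians were 0.22 and 0.44 (in HA -0.19 with equal sums), and for the 5 SNARE genes -0.16 and 0.74 (in HA 0.14 with equal sums).

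Some genes of these groups showed no order by age. Arf1, the GTPase that recruits COPI, had 256 and 359 CPM in old and 360 and 350 CPM in young input libraries, and 241 and 320 against 369 and 186 CPM in HA. Gorasp2, which links Golgi cisternae into stacks, had 278 and 244 against 228 and 275 CPM in input and 332 and 175 against 185 and 285 CPM in HA. For both genes the ages overlapped in each fraction. Others differed mainly between the 2 old HA libraries. Tmed9, a p24 receptor, had 126 and 702 CPM in old and 155 and 333 CPM in young HA libraries. Arf6, an Arf GTPase of the plasma membrane, had 102 and 1.33 CPM in old and 50.9 and 47.5 CPM in young HA libraries, and Arfgef2, which encodes the Arf activator BIG2, had 96.1 and 455 against 99.4 and 43.4 CPM. The log2 difference in HA was 1.66 for Arfgef2 and -1.70 for Arf6, with an adjusted p of 0.466 and 0.79 in limma. Trappc10, a subunit of TRAPPII, had 214 and 121 CPM in old and 77 and 49.0 CPM in young HA libraries, without overlap, and a log2 difference of 1.37 (SE 0.64, adjusted p = 0.391 in limma).

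**Figure D4:**
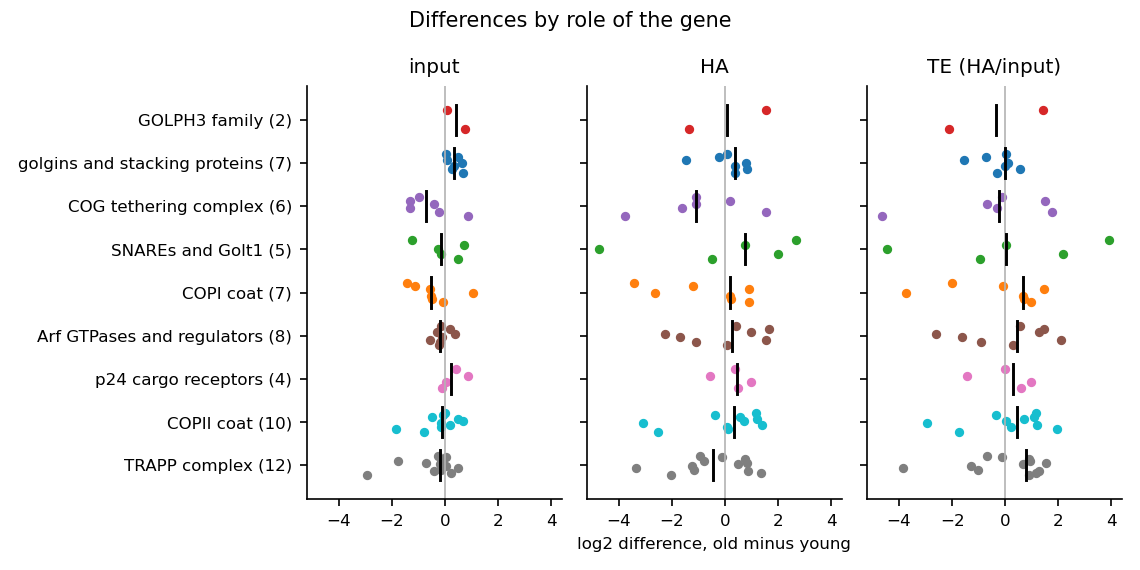
Log2 difference between old and young oocytes in input, HA and TE for the 61 genes by role, with the number of genes in brackets. Each point is a gene and each vertical line the median of its role group. All 7 golgins and stacking proteins lie right of 0 in input, 6 of 7 COPI genes lie left of it, and in HA and TE every group of 4 or more genes spreads over both sides.

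Under the deposited scaling, the sign of the HA difference went with the HA level. Of the 30 genes with a mean of at least 50 CPM in HA, 24 (80.0%) were above 0, and of the 31 genes under 50 CPM, 20 (64.5%) were below 0. Copz2, Sar1a, Trappc1 and Trappc13, among those 20, were in the HA table through the young pools alone and had to lie below 0. So did 11.6% of all genes in that table. Among all genes in both tables, 70.9% of those at or over 50 CPM were above 0 and 67.4% of those under it were below 0. This held under the deposited scaling and under median ratio scaling, with 25 of 30 above 0. With equal sums 14 of the 30 genes were above 0 (all genes, 40.3%), and after quantile normalization 15 of 30 were (all genes, 45.2%). Golph3 and Cog1 were among the 6 genes at or over 50 CPM that lay below 0. The 2 old HA libraries differed from each other more than the young ones, with a median absolute log2 difference of 1.20 over the 61 genes against 0.62. For all genes these values were 1.29 and 0.77. More than 4-fold apart were 16 genes between the old and 4 between the young HA libraries. The part of level and replicate spread in the differences between the ages was not tested.

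**Figure D5:**
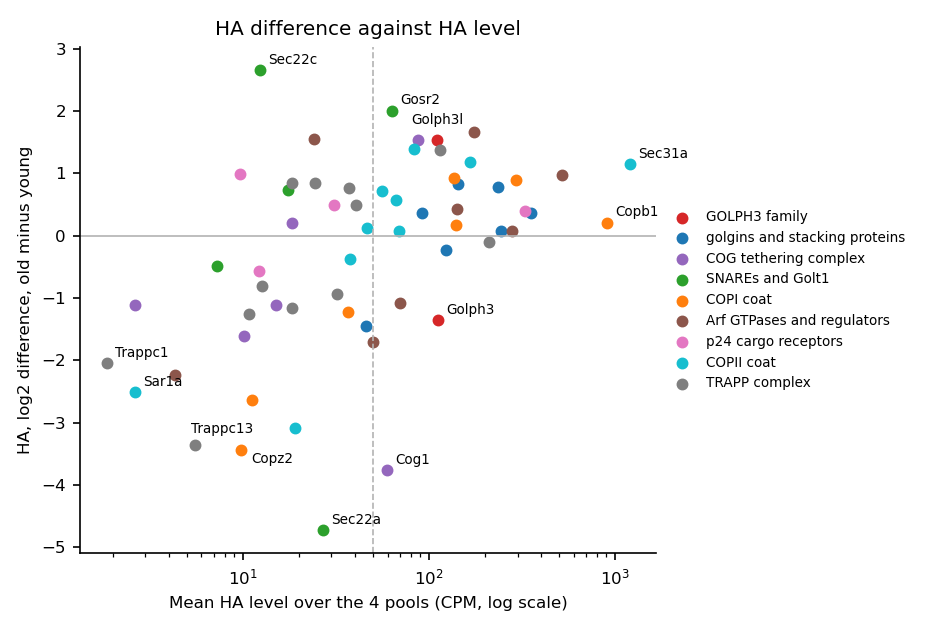
Log2 difference between old and young oocytes in HA against the mean HA level over the 4 pools (log axis) for the 61 genes, under the deposited scaling. The dashed line marks 50 CPM. Right of it 24 of 30 genes lie above 0 and Golph3 lies below it, while left of it 20 of 31 genes lie below 0. Of those 20, 4 were in the HA table through the young pools alone.

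At least 1 CPE motif was found in the 3'-UTR of 40 of 61 genes (65.6%), against 70.6% of the 7940 genes with an annotated 3'-UTR. The median 3'-UTR was 1261 bases in the group and 1538 bases over all genes. Golph3 was among 5 genes with 8 or more motifs (8.20%, against 7.93% of all genes), with Arfgef3, Golga3, Sec24a and Tmed5, each of which had 12. Their TE differences were not alike, at 0.57 for Arfgef3, 0.57 for Golga3, 0.04 for Sec24a and -1.45 for Tmed5, beside -2.11 for Golph3. Of the genes that passed the unadjusted threshold in HA, Gosr2, Sec31a (higher) and Copz2 (lower) had no motif, while Golph3l (higher) had 2 and Sec22a, Trappc13, Trappc1 (1 each) and Sar1a (3), all lower, had some. The lower genes other than Sec22a were in the HA table through the young pools alone, so motifs cannot be set against their direction. The 40 genes with a motif had a median TE difference of 0.44 and the 21 without 0.00, where all genes gave -0.03 and -0.30. A motif in these letters is not a site shown to bind CPEB1. For Golph3 the study had other evidence, since it reported that CPEB1 antibodies recovered the mRNA from immature oocytes of young mice. It also reported lower translation of a reporter carrying the Golph3 3'-UTR in old oocytes and in young oocytes heterozygous for Cpeb1.

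The symbols in 1 table only were Arf2, Arfgap1, Cog7, Cope, Golga1, Golt1b, Sec23b, Tmed3 and Tmed7 in the input table and Tmed4 and Trappc6a in the HA table. Arfgap1, which switches ARF1 off, had 45.5 and 44.5 CPM in old and 3.98 and 0.683 CPM in young input libraries. Its log2 difference of 3.99 (SE 0.97, adjusted p = 0.778 in limma) was the widest of any symbol matched by the rule in input. Golga1, a golgin of the trans-Golgi, was counted 139 and 156 times in old against 5 and 0 times in young input libraries (log2 difference 1.89, SE 0.72, adjusted p = 0.778 in limma). Golga1 was under 1 CPM in both young libraries and was thus in the input table through the old pools alone. The levels of both genes in HA were not analysed here.

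Genes outside the rule that work with these proteins were read from 4 lists of 63 genes. At an unadjusted p under 0.05 in limma, 0 were higher and 1 lower of 54 in input, 4 and 3 of 51 in HA, and 3 and 1 of 50 in TE, and none passed the adjustment. Of all genes, 2.71% and 3.48% were called in input, 4.28% and 10.5% in HA, and 2.98% and 3.51% in TE. The 3 genes lower in HA, Sec16b, Rab1a and Clta, were under 1 CPM in both old HA libraries, so that they were listed through the young pools alone. Under the deposited scaling, the only one read for these lists, the GOLPH3 and PI4P partners had a median log2 difference of 1.20 in HA. Of these 8 genes 6 were above 0 (all genes, 4084 of 8898), where Golph3 itself was at -1.36. Among the 6, Osbp (106 and 26 CPM in old HA libraries), Sacm1l (74.4 and 2.81 CPM) and Pi4k2a (5.89 and 0.037 CPM) rested on the first old library. The other lists had HA medians of -0.12 for further tethers, Rabs and SNAREs, -0.10 for exit sites and cargo receptors and -0.49 for clathrin and AP1, and all lists together -0.25. Myo18a, the myosin partner of GOLPH3, had 153 and 163 CPM in old and 67.6 and 13.5 CPM in young HA libraries, with a log2 difference of 2.33 (SE 0.90, adjusted p = 0.315 in limma). Acbd3, which brings the PI4P kinase to the Golgi, had 367 and 497 against 80.7 and 92.6 CPM in HA (2.29, SE 0.49, adjusted p = 0.297 in limma) and 103 and 120 against 84.9 and 75.5 CPM in input. Its TE was 3.58 and 4.14 in old and 0.95 and 1.23 in young pools. Sec16a, the scaffold of endoplasmic reticulum exit sites, had 1115 and 972 against 471 and 334 CPM in HA, while Sec16b had 0.0475 and 0.111 against 11.3 and 9.45 CPM. Stx5a, the Golgi SNARE that pairs with GOSR1 and GOSR2, had 284 and 425 against 110 and 130 CPM, while Rab1a, the Rab that TRAPP activates, had 0.143 and 0.111 against 30.6 and 3.42 CPM. Clta, a clathrin light chain, had 0.0950 and 0.0739 against 6.97 and 7.70 CPM. Vapb, an endoplasmic reticulum anchor for lipid transfer proteins, was the gene lower in old input, with 4.39 and 14.2 against 31.4 and 54.0 CPM.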

How the data were processed

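RNA-Seq of 8 libraries (4 pools, input and HA each) was analysed. Per the Methods, the authors trimmed reads (Trimmomatic 0.36), aligned them to GRCm38 with HISAT2, counted them per gene, introns included and without strand, with HTSeq, and applied a low-value filter and TMM normalization in edgeR. The deposited signal values are CPM. Each value was a whole multiple of 1 read (tolerance 0.01, 100% of values), so reads were recovered.

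Old and young were compared with limma 3.58.1 (R 4.3.3; trend, two-sided) on log2(CPM + 1), per table and for TE, with thresholds of 0.05. TE was paired within a pool, since the input is part of the same lysate. Alternatives were pseudocounts of 0.1 and 5 CPM, a filter of 10 CPM in 2 libraries, 3 scalings, a replicate block, each pool left out, edgeR 4.0.16 and DESeq2 1.42.0 on recovered reads. The tests were tested on simulated data. Genes, lists and tests were chosen with earlier results of these data known. Named were Golph3, Golph3l, genes with an unadjusted p under 0.05, the 3 highest per fraction and the 5 most like Golph3. Others that illustrate a role group were chosen after their values were seen. 3'-UTRs and the share of exon bases within spans of other genes came from GENCODE M21. Protein sequences were not used here.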

Additional observations from a re-analysis of the deposited data

Results flagged for a closer look

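The difference between the ages pointed opposite ways in input and HA, with no overlap between old and young pools in either, for 3 of the 61 genes, against 4.94% of all genes. These genes were picked for that order, which also fixes the order of their TE, so the TE values below describe them and are not an independent test. For Golph3 the log2 TE difference was -2.11 (SE 0.67, adjusted p = 0.739 in limma), with TE lower in both old pools than in both young pools. For Sec22c it was 3.90 (SE 1.56, adjusted p = 0.739 in limma) and for Arfgef1 1.27 (SE 0.51, adjusted p = 0.739 in limma), with TE higher in both old pools. None of the 3 passed the adjustment, and the share of the 61 genes lies near that of all genes. Groups of 2 pools are too small for a check of single outlying samples.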

How the results depend on the processing

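With unadjusted p under 0.05, the number of genes higher in old input (main 1) was 0 after rescaling the libraries to equal sums and 0 after quantile normalization, and the number lower (main 2) was 1 with a pseudocount of 0.1 CPM, 1 in edgeR's likelihood ratio test and 1 in its quasi-likelihood test. In HA, the number higher (main 3) was 0 with equal sums, 5 with median ratio scaling, 1 after quantile normalization, 1 in each edgeR test and 7 in DESeq2, and the number lower (main 5) was 1 with the 10 CPM filter and 2 after quantile normalization. In TE, the number higher (main 4) was 1 with equal sums, 1 after quantile normalization, 1 in each edgeR test and 2 in DESeq2, and the number lower (main 3) was 7 in DESeq2. After adjustment, edgeR's likelihood ratio test called 2 genes in HA (Sar1a, Sec22a; 3.32% of all genes), DESeq2 called 4 in HA (these with Copz2 and Trappc13; 5.64% of all) and 2 in TE (Trappc13, Sec22a; 3.71% of all), and edgeR's quasi-likelihood test called 0 of the 61 and 0 of all genes in either. In HA, leaving out 1 pool gave 0 to 4 genes, namely Cog1, Sec22a, Arf6 and Arfgef2 without old replicate 1 (4.42% of all genes) and Copz2, Sar1a, Trappc13 and Trappc1 without young replicate 2 (7.13% of all). The lone pool of an age is there assumed to vary like those of the other age.

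Leaving out 1 pool gave 0 to 2 higher and 0 to 5 lower genes in input, 0 to 8 and 4 to 11 in HA, and 0 to 9 and 0 to 9 in TE at an unadjusted p under 0.05. The median HA difference (main 0.18) was -0.45 with equal sums, -0.14 after quantile normalization and -0.16 to 0.31 with 1 pool left out. The median TE difference (main 0.11) was 0.44 with the 10 CPM filter, -0.28 with equal sums, 0.30 with median ratio scaling, 0.26 in DESeq2 and 0.04 to 0.58 with 1 pool left out. Golph3 kept its signs throughout, at 0.54 to 0.97 in input, -1.97 to -0.74 in HA and -2.63 to -1.58 in TE with 1 pool left out. Because its ages did not overlap, leaving out a pool could not change these signs. Other genes with the whole Golph3 pattern (main 0) numbered 1 with equal sums, 1 with median ratio scaling, 1 after quantile normalization and 2 to 4 with 1 pool left out. By sign there were 10, against 5 with the 10 CPM filter and 7 to 13 with 1 pool left out. At an adjusted p of 0.05, 206 values of single named genes other than Golph3 kept their direction and their side of the threshold and 13 passed it under an alternative only, while all 42 of Golph3 kept both. The causes were not tested.

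The labels link old and young pools of the same replicate number by that number alone. Their deviations correlated with r = 0.0269 in input, 0.0786 in HA and 0.0108 in TE. Whether such pools share a batch is not stated and was not tested. With a replicate block, 1 gene was higher and 2 lower in input, 2 and 5 in HA and 3 and 4 in TE, with 0 past the adjustment, and the Golph3 TE difference stayed at -2.11 (adjusted p = 0.511 in limma).

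Precision is limited by 2 pools per age and by old HA libraries that differed by a median of 1.20 log2 units, and for Sar1a, Trappc1 and Trappc13 also by the few reads behind the old HA values.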
